A study of Mus musculus with 6 samples.

Results

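Matrix metalloproteinases (MMPs) are zinc-dependent proteases that cut collagens, gelatin, proteoglycans and other proteins of the extracellular matrix, and tissue inhibitors of metalloproteinases (TIMPs) are small secreted proteins that bind and block them. The genes described here are 4 TIMPs (Timp1, Timp2, Timp3 and Timp4) and 6 MMPs (Mmp2, Mmp3, Mmp9, Mmp11, Mmp14 and Mmp19). They were taken as the probesets to which the platform annotation gives exactly that symbol. Each of the 10 genes had 1 such probeset, and the arrays held 19938 named genes in all. All 10 were bright enough to be tested, where testing asked for a log2 intensity above 7 on at least 3 arrays, which 11024 genes reached.

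The arrays address the role of HO-1, the heme-degrading enzyme encoded by Hmox1, in adipose precursors (APs), the stromal cells that give rise to adipocytes. RNA came from perigonadal visceral fat (viWAT) of obese male C57BL/6J mice of 2 genotypes, both fed a high-fat diet (HFD) for 8 weeks from 6 weeks of age. Hmox1f/f PdgfraCre mice carry loxP-flanked Hmox1 alleles and a Cre recombinase driven by the promoter of Pdgfra, a receptor gene of APs and other mesenchymal cells. Hmox1f/f mice carry the same flanked alleles without Cre, so that effects of Cre itself and of Hmox1 deletion cannot be told apart. There were 3 arrays per genotype, numbered 1 to 3 for Hmox1f/f PdgfraCre and 4 to 6 for Hmox1f/f, and each array held RNA pooled from 2 mice. The p-values measure the spread between these pools.

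In obese fat the matrix around adipocytes is taken apart and rebuilt as the tissue grows. MMPs are made as inactive proenzymes, and Mmp14, which sits in the cell membrane, is known to activate proMmp2 in a complex that also contains Timp2. Stromal cells make most of the matrix, and macrophages and other leukocytes are known sources of proteases such as Mmp9, Mmp12 and Adam8.

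Hmox1 gave a log2 intensity of 11.25, 11.36 and 10.74 on the Hmox1f/f PdgfraCre arrays, against 11.90, 11.63 and 12.32 on the Hmox1f/f arrays, a difference of -0.83 (-0.53 with arrayWeights) with an adjusted p of 0.266 by limma. Where its probes lie relative to the flanked exon was not analysed here, so this is a limited check of the labels. The labels describe the material both as AP cells purified with magnetic beads and as viWAT. The adipocyte gene Adipoq, whose product is the hormone adiponectin, lay between 12.94 and 13.10 on the Hmox1f/f PdgfraCre arrays and between 12.74 and 12.90 on the Hmox1f/f arrays, so that this defining marker of mature adipocytes was bright in both groups. Pdgfra, which marks APs, gave 10.05 to 10.24 on the Hmox1f/f PdgfraCre arrays and 10.31 to 10.36 on the Hmox1f/f arrays. Epididymal transcripts stood out on some arrays, with Lcn5 at 12.21 on Hmox1f/f PdgfraCre 1 and Gpx5 at 10.33 on Hmox1f/f 6. The results below are also given without these 2 arrays where that matters. The 1 epididymal marker bright enough to be tested gave 11.68 on Hmox1f/f PdgfraCre 1, 8.93 on Hmox1f/f PdgfraCre 3 and 7.85 on Hmox1f/f 6. It lay between 5.43 and 5.52 on the remaining arrays. Leaving out Hmox1f/f PdgfraCre 1 and Hmox1f/f 6 therefore did not remove all such signal. The median intensity of the 6 arrays ranged between 106 and 115. With 3 arrays a group, precision was limited by their number.

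Where 57.4% of all tested genes were lower in Hmox1f/f PdgfraCre than in Hmox1f/f, 7 of the 10 genes were lower and 3 were higher. None passed an adjusted p of 0.05 by limma, and neither did any other gene on the arrays (0 of 11024, 0%). Timp1, Mmp19, Mmp2, Mmp3, Mmp14 and Timp2 were lower at an unadjusted p under 0.05, which 12.8% of all tested genes were. No member was higher at that level, against 3.03% of all tested genes (15.8% in either direction). In the same 6 genes all Hmox1f/f PdgfraCre arrays lay below all Hmox1f/f arrays, which held for 21.2% of all tested genes. In none of the 10 did they lie above, which held for 5.82% of all tested genes (27.0% in either direction). The median log2 difference of the 10 genes was -0.26, where that of all tested genes was -0.03. When Hmox1f/f PdgfraCre 1 and Hmox1f/f 6 were both left out, the median was -0.24 and 2 genes, Timp1 and Mmp2, kept an unadjusted p under 0.05.

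**Figure D1:**
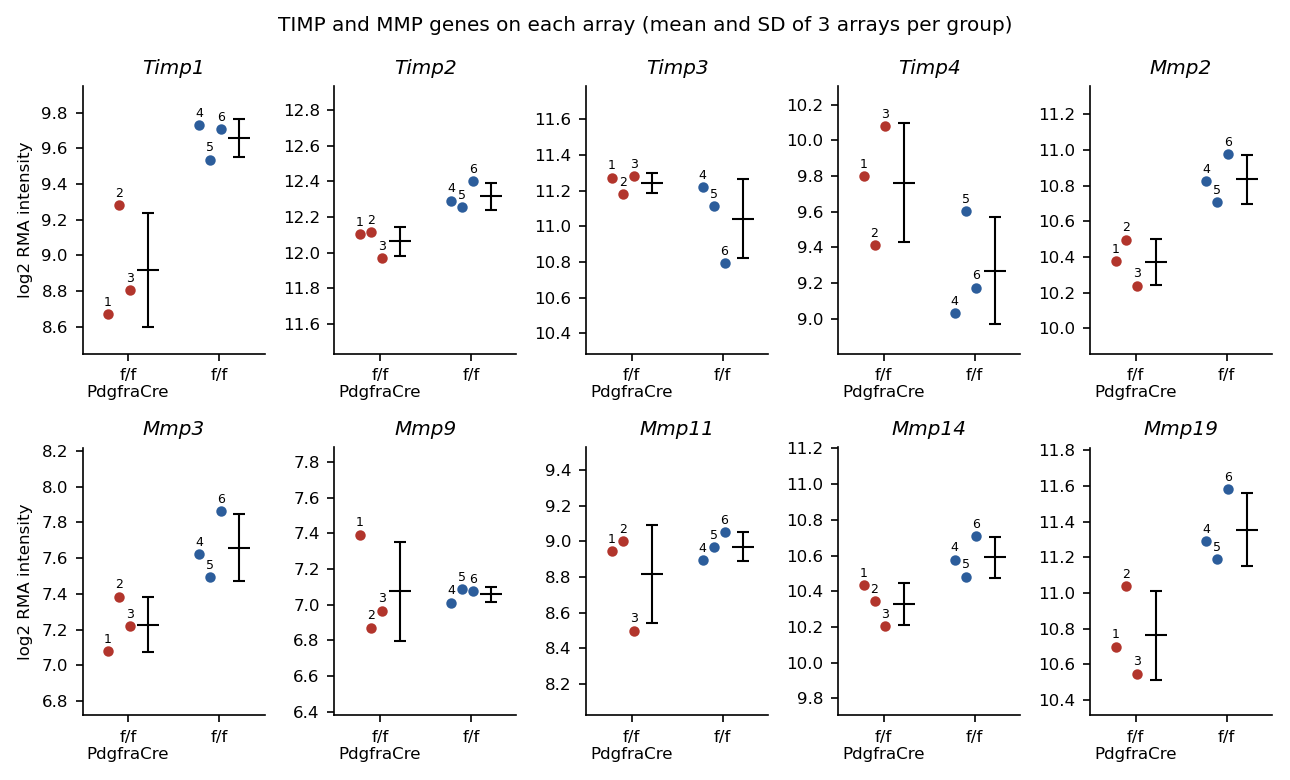
RMA intensity on a log2 scale (vertical axis, each panel spanning 1.5 units) of the 4 TIMP and 6 MMP genes on each Hmox1f/f PdgfraCre (red) and Hmox1f/f (blue) array, labelled by replicate number, with f/f short for Hmox1f/f and black bars for the mean and SD of 3 arrays. The red and blue points do not overlap for Timp1, Timp2, Mmp2, Mmp3, Mmp14 and Mmp19, and they overlap for the other 4 genes.

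Promoter sequences are shown for 4 of the genes. They are the gene that differed most (Timp1), the TIMP with the largest positive difference (Timp4), the stromelysin Mmp3 and the membrane-bound Mmp14. Of these, Timp4 had a positive difference, and Timp1, Mmp3 and Mmp14 were lower. Each sequence is the 150 bases before the RefSeq gene start on mouse build GRCm38.p6, written 5′ to 3′ on the strand of the gene. Capitals mark matches to any of 3 motifs, the AP-1 motif TGANTCA, the TATA box TATAAA and the GC box GGGCGG, searched on both strands.
Timp1, chrX:20870016-20870165, plus strand: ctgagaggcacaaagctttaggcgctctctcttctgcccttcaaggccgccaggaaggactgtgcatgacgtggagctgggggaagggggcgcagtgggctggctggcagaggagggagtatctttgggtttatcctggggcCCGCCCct
Timp4, chr6:115252206-115252355, minus strand: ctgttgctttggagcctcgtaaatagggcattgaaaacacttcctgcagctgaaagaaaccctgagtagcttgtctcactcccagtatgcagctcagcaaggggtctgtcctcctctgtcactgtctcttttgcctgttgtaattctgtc
Mmp3, chr9:7445672-7445821, plus strand: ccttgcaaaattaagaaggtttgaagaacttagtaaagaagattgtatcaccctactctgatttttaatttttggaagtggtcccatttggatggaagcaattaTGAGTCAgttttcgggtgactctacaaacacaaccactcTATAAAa
Mmp14, chr14:54431448-54431597, plus strand: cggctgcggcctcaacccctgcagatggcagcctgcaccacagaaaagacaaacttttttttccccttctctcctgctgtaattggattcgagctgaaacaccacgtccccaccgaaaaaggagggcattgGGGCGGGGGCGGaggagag

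RefSeq windows were held for 7 of the 10 genes (not for Mmp2, Mmp9 and Mmp19). Over the 250 bases before the start, an AP-1 motif was found in Mmp3 alone of these 7, at -46 to -40, and a TATA box likewise, at -7 to -2. AP-1 motifs were present in 6.75% and TATA boxes in 12.4% of the 32851 promoter windows of all genes. The GC box, found in 32.7% of all windows, was present in Timp1, Timp2, Timp3, Mmp11 and Mmp14, with 2 copies each in Mmp11 and Mmp14. The Timp4 window held none of the 3 motifs. These are matches of letters, and whether any factor binds them was not measured.

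Timp1, on chromosome X (20870166 to 20874737; RefSeq, GRCm38.p6, as for all genes here), encodes a secreted inhibitor of many MMPs that is induced in inflamed and obese tissue. It gave 8.67, 9.28 and 8.80 on the Hmox1f/f PdgfraCre arrays, against 9.73, 9.54 and 9.71 on the Hmox1f/f arrays. The groups did not overlap, and Hmox1f/f PdgfraCre 2 lay closer to the Hmox1f/f arrays than did the other 2. The means were 8.92 ± 0.32 in Hmox1f/f PdgfraCre and 9.66 ± 0.11 in Hmox1f/f (SD, n = 3 each). The log2 difference was -0.74 ± 0.17 (SE), with a 95% confidence interval between -1.14 and -0.34, that is 1.67-fold lower with Cre. The unadjusted p was 0.00381 and the adjusted p was 0.266 by limma, and 105 genes including Timp1 had an unadjusted p that small. With any single array left out the difference stayed between -0.92 and -0.61.

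Timp2, on chromosome 11 (118301061 to 118355411), encodes the inhibitor that takes part in the activation of proMmp2. It gave 12.10, 12.12 and 11.97 on the Hmox1f/f PdgfraCre arrays, against 12.29, 12.26 and 12.40 on the Hmox1f/f arrays. No array of one genotype reached into the other although the difference was small, at -0.25 ± 0.08 (SE), or 1.19-fold lower with Cre (unadjusted p = 0.0179, adjusted p = 0.266, limma). Leaving out Hmox1f/f 6 gave -0.21 with an unadjusted p of 0.0522 (limma). The spread was 0.08 within Hmox1f/f PdgfraCre and 0.08 within Hmox1f/f (SD, n = 3 each).

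Timp3 and Timp4 lay on the other side of zero. Timp3, on chromosome 10 (86300412 to 86349505), encodes an inhibitor that binds to the matrix and also blocks ADAM and ADAMTS proteases. It gave 11.27, 11.18 and 11.28 on the Hmox1f/f PdgfraCre arrays, against 11.22, 11.12 and 10.79 on the Hmox1f/f arrays. The groups overlapped, and Hmox1f/f 6 was the low array. The difference was 0.20 ± 0.12 (SE; unadjusted p = 0.144, adjusted p = 0.437, limma), and 0.08 without Hmox1f/f 6.

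Timp4, on chromosome 6 (115244444 to 115252205), encodes the TIMP with the most restricted tissue expression, which is known to be abundant in fat. It gave 9.80, 9.41 and 10.08 on the Hmox1f/f PdgfraCre arrays, against 9.03, 9.60 and 9.17 on the Hmox1f/f arrays. Hmox1f/f PdgfraCre 2 was below Hmox1f/f 5, so the groups overlapped. The means were 9.76 ± 0.34 in Hmox1f/f PdgfraCre and 9.27 ± 0.30 in Hmox1f/f (SD, n = 3 each). The difference of 0.49 ± 0.21 (SE) was 1.41-fold higher with Cre, with a 95% confidence interval between -0.02 and 1.01 (unadjusted p = 0.0584, adjusted p = 0.327, limma). Its size hung on single arrays, with 0.67 the highest and 0.34 the lowest value when an array was left out, and it was 0.27 when arrays were weighted by their quality. Leaving out Hmox1f/f PdgfraCre 2 gave an unadjusted p of 0.0195, and leaving out Hmox1f/f 5 one of 0.0235 (limma).

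**Figure D2:**
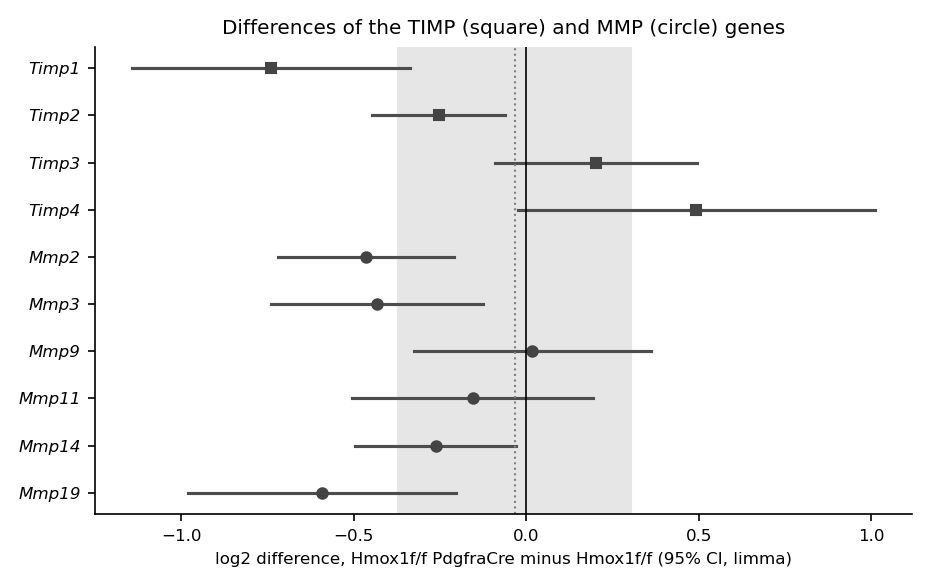
Log2 difference, Hmox1f/f PdgfraCre minus Hmox1f/f (horizontal axis), of the TIMP (square) and MMP (circle) genes with 95% confidence intervals from limma. The dotted line is the median of all tested genes (-0.03) and the grey band spans the 5th to the 95th percentile of their differences (-0.37 to 0.30), below which lie Timp1, Mmp2, Mmp3 and Mmp19 and above which lies Timp4.

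Among the MMPs, the gelatinases Mmp2 and Mmp9 cut denatured collagen and basement membrane collagen. Mmp2, on chromosome 8 (92827290 to 92853421), is made mainly by fibroblast-like cells. It gave 10.38, 10.50 and 10.24 on the Hmox1f/f PdgfraCre arrays, against 10.82, 10.71 and 10.98 on the Hmox1f/f arrays. Both groups kept apart, with means of 10.37 ± 0.13 in Hmox1f/f PdgfraCre and 10.84 ± 0.14 in Hmox1f/f (SD, n = 3 each). The difference was -0.46 ± 0.11 (SE), with a 95% confidence interval between -0.72 and -0.21, or 1.38-fold lower with Cre (unadjusted p = 0.00403, adjusted p = 0.266, limma). It lay between -0.53 and -0.39 whichever single array was left out, and at -0.40 with Hmox1f/f PdgfraCre 1 and Hmox1f/f 6 both left out.

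Mmp9, on chromosome 2 (164940326 to 164955850), is a gelatinase made largely by leukocytes. Its signal was near the level asked for testing, which it passed on 4 of the 6 arrays. It gave 7.39, 6.87 and 6.97 on the Hmox1f/f PdgfraCre arrays, against 7.01, 7.09 and 7.08 on the Hmox1f/f arrays. Hmox1f/f PdgfraCre 1 was the highest array and the other 2 of that genotype were the lowest. The difference was 0.02 ± 0.14 (SE), with a 95% confidence interval between -0.33 and 0.36 (unadjusted p = 0.905, adjusted p = 0.956, limma), and its sign turned with the scaling (-0.01 with each array centred on its median) and without Hmox1f/f PdgfraCre 1 (-0.14).

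The stromelysins cut proteoglycans, fibronectin and other matrix proteins, and Mmp3 also activates other proMMPs. Mmp3, on chromosome 9 (7445822 to 7455975), gave 7.08, 7.38 and 7.22 on the Hmox1f/f PdgfraCre arrays, against 7.62, 7.49 and 7.86 on the Hmox1f/f arrays. Again the groups did not overlap, with the nearest arrays being Hmox1f/f PdgfraCre 2 and Hmox1f/f 5. The difference was -0.43 ± 0.13 (SE), or 1.35-fold lower with Cre, with a 95% confidence interval between -0.74 and -0.13 (unadjusted p = 0.0133, adjusted p = 0.266, limma). With Hmox1f/f PdgfraCre 1 and Hmox1f/f 6 both left out, the Mmp3 difference was -0.26. Its values were close to the level asked for testing, and RMA compresses differences of dim probesets.

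Mmp11, on chromosome 10 (75923221 to 75932502), encodes stromelysin-3, which is activated inside the cell before secretion. It gave 8.95, 9.003 and 8.50 on the Hmox1f/f PdgfraCre arrays, against 8.89, 8.97 and 9.05 on the Hmox1f/f arrays. Hmox1f/f PdgfraCre 3 alone was low, and the other 5 arrays lay within 8.89 and 9.05. The difference of -0.16 ± 0.14 (SE; unadjusted p = 0.324, adjusted p = 0.593, limma) was 0.00 without Hmox1f/f PdgfraCre 3.

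Mmp14, on chromosome 14 (54431598 to 54442456), encodes the membrane-type protease that cleaves fibrillar collagen at the cell surface. It gave 10.43, 10.34 and 10.20 on the Hmox1f/f PdgfraCre arrays, against 10.58, 10.48 and 10.71 on the Hmox1f/f arrays. These values did not overlap, but the nearest ones, 10.43 and 10.48, were close. The difference was -0.26 ± 0.10 (SE), or 1.20-fold lower with Cre (unadjusted p = 0.0333, adjusted p = 0.289, limma), and the unadjusted p stayed under 0.05 in 2 of the 6 fits that left out an array, which were those lacking Hmox1f/f PdgfraCre 1 or Hmox1f/f 5. With arrays weighted by quality the difference was -0.15.

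Mmp19, on chromosome 10 (128790910 to 128800827), encodes a protease that cleaves basement membrane proteins. It gave 10.70, 11.04 and 10.55 on the Hmox1f/f PdgfraCre arrays, against 11.29, 11.19 and 11.58 on the Hmox1f/f arrays. The groups did not overlap, with means of 10.76 ± 0.25 in Hmox1f/f PdgfraCre and 11.35 ± 0.20 in Hmox1f/f (SD, n = 3 each). The difference was -0.59 ± 0.16 (SE), with a 95% confidence interval between -0.98 and -0.20, or 1.51-fold lower with Cre (unadjusted p = 0.00926, adjusted p = 0.266, limma). Of the 6 MMPs it differed most, and it stayed between -0.73 and -0.48 when single arrays were left out.

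Mmp14, Timp2 and Mmp2, which meet in the activation of proMmp2, were each lower, by small amounts for Mmp14 and Timp2. Without Hmox1f/f PdgfraCre 1 and Hmox1f/f 6 the unadjusted p was 0.0609 for Mmp14 and 0.0708 for Timp2 (limma). Whether these genes changed together was not tested. Among the inhibitors, Timp1 and Timp2 were lower, while Timp3 and Timp4 had positive differences that did not pass even the unadjusted level. Whether one TIMP differed from another in its response was not tested.

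Some genes shared a pattern over the arrays. For Timp1, Mmp2, Mmp3 and Mmp19, Hmox1f/f PdgfraCre 2 lay nearest to the Hmox1f/f arrays, while for Mmp14 it was Hmox1f/f PdgfraCre 1. Deviations from the mean of all 6 arrays on Hmox1f/f PdgfraCre 1, 2 and 3 were -0.62, -0.01 and -0.48 for Timp1. They were -0.36, -0.02 and -0.51 for Mmp19. For Timp4, Hmox1f/f PdgfraCre 2 was the lowest of the 3, with 0.28, -0.11 and 0.56. The macrophage marker genes gave mean deviations of -0.29, 0.02 and -0.53 on the Hmox1f/f PdgfraCre arrays, against 0.28, 0.21 and 0.31 on the Hmox1f/f arrays. Their lowest array was Hmox1f/f PdgfraCre 3, as for Mmp2 and Mmp19, while Timp1 and Mmp3 were lowest on Hmox1f/f PdgfraCre 1.

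**Figure D3:**
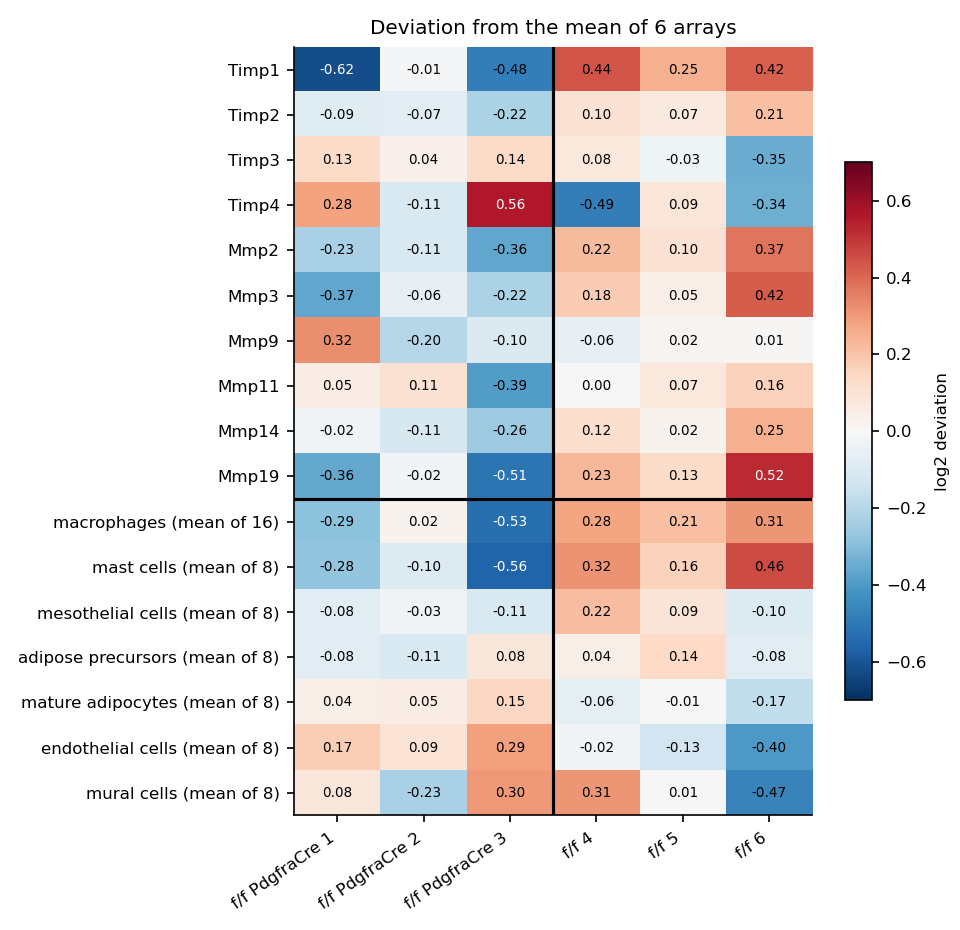
Deviation of the log2 intensity from the mean of the 6 arrays (colour, blue below and red above) for each TIMP and MMP gene and for the mean of each marker list, with the Hmox1f/f PdgfraCre arrays in the left columns and the Hmox1f/f arrays in the right columns, f/f being short for Hmox1f/f. Timp1 and Mmp19 were lowest on Hmox1f/f PdgfraCre 1 and 3, where the macrophage and mast cell means were also lowest, and Timp4 was highest there.

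All 16 macrophage markers were lower in Hmox1f/f PdgfraCre, 12 of them at an unadjusted p under 0.05 and 0 past the adjusted level by limma, with a median difference of -0.48. Of all tested genes, 57.4% were lower and 12.8% were lower at that unadjusted level. Leaving out Hmox1f/f PdgfraCre 1 left 8 of the 16 markers at that level. Leaving out Hmox1f/f 6 as well left 2, with all 16 still lower and a median of -0.50. In 3 settings 15 were lower and 1 higher. These were without Hmox1f/f PdgfraCre 3 (median -0.36), without Hmox1f/f 4 (-0.49) and with arrayWeights (-0.47). Adgre1, which encodes the macrophage surface protein F4/80, differed by -0.57 and Cd68, a lysosomal protein of macrophages, by -0.35. The summed intensity of the list lay between 37543 and 53492 on the Hmox1f/f PdgfraCre arrays and between 58627 and 62997 on the Hmox1f/f arrays, and the part of macrophages in the TIMP and MMP differences was not tested. In bulk RNA, fewer cells of a type and less RNA per cell cannot be told apart.

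Mast cell markers were lower as well. Of the 8 found, 5 were tested and all 5 were lower, as were 57.4% of all tested genes. At an unadjusted p under 0.05 (limma) there were 4, a level that 12.8% of all tested genes reached in that direction. With Hmox1f/f PdgfraCre 1 and Hmox1f/f 6 left out there were 3. Of the 4, Cma1, named after its values were seen, passed the log2 level of 7 on 4 arrays, the 3 Hmox1f/f arrays and Hmox1f/f PdgfraCre 2. Its place among the 4 was thus partly set by that filter. Cpa3, a mast cell carboxypeptidase, differed by -0.87 and the receptor Kit by -0.01. Their summed intensity lay between 1193 and 1796 on the Hmox1f/f PdgfraCre arrays and between 2322 and 2724 on the Hmox1f/f arrays. Endothelial and adipocyte markers ran the other way. All 8 endothelial markers were higher, with a median of 0.37 and 5 at an unadjusted p under 0.05 (0.23 and 2 when Hmox1f/f 6 was left out), including Cdh5 by 0.45 and Pecam1 by 0.32, and the sum lay between 7795 and 9029 on the Hmox1f/f PdgfraCre arrays and between 5607 and 7093 on the Hmox1f/f arrays. Of the 11024 tested genes, 4697 were higher, and 3.03% of all were higher at that unadjusted level. All 8 adipocyte markers found were higher too, by less, with a median of 0.13 and 2 at an unadjusted p under 0.05 by limma (0.09 and 1 when Hmox1f/f 6 was left out). Their sums lay between 58793 and 62817 on the Hmox1f/f PdgfraCre arrays and between 51148 and 57019 on the Hmox1f/f arrays.

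Of the 8 AP markers found, 4 were lower and 4 higher, with a median of -0.03. This split rested on single arrays, with 8 of 8 lower and a median of -0.11 when Hmox1f/f 6 was left out, 7 of 8 and -0.13 when Hmox1f/f PdgfraCre 3 was left out, and 7 of 8 and -0.17 with arrayWeights. In 2 of the 8, Pdgfra and Pi16, all Hmox1f/f PdgfraCre arrays lay below all Hmox1f/f arrays, which held for 21.2% of all tested genes. Pi16, a progenitor marker named after its values were seen, gave 6.81, 6.70 and 6.73 on the Hmox1f/f PdgfraCre arrays, against 7.07, 7.04 and 7.02 on the Hmox1f/f arrays (difference -0.30, unadjusted p = 0.00387, adjusted p = 0.266, limma). Its values lay around the log2 level of 7 asked for testing, which it passed only on the 3 Hmox1f/f arrays. Its p and lack of overlap were thus partly set by that filter. The AP sums lay between 17378 and 19317 on the Hmox1f/f PdgfraCre arrays and between 17027 and 19505 on the Hmox1f/f arrays. Of the 8 neutrophil markers 2 were bright enough to be tested, S100a8 with a difference of -0.04 and Csf3r, named after its values were seen, with -0.26 (unadjusted p = 0.0333, adjusted p = 0.289, limma) and no overlap between the groups, while S100a9 was too dim. Of 7 mesothelial markers tested, 6 were lower, as were 57.4% of all tested genes, with a median of -0.18. At an unadjusted p under 0.05 (limma) 1 was lower (0 to 2 with single arrays left out), as were 12.8% of all tested genes. The mesothelial sum lay between 2345 and 2634 on the Hmox1f/f PdgfraCre arrays and between 2403 and 2985 on the Hmox1f/f arrays. The mural sum overlapped between the groups as well, at 7359 to 9700 in Hmox1f/f PdgfraCre and 6078 to 9854 in Hmox1f/f. The part of any of these cell types in the TIMP and MMP values was not tested.

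The tested genes whose pattern over the 6 arrays was nearest to that of Timp1 were Gpr137b, Lrrc25 and Dpp7. Likeness was the root mean square difference between mean-centred log2 values, which was 0.0773 for Gpr137b, 0.0801 for Lrrc25 and 0.0908 for Dpp7. Their differences were -0.59 for Gpr137b, -0.71 for Lrrc25 and -0.67 for Dpp7. As these genes were picked by likeness over the same arrays, differences near that of Timp1 follow from the choice.

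Other MMPs were mostly dim in this material. Of 16 found, 5 were tested, of which 3 were lower and 2 higher, with a median of -0.13, where 57.4% of all tested genes were lower. Mmp13, a collagenase that cuts fibrillar collagen, gave 6.61, 7.15 and 6.93 on the Hmox1f/f PdgfraCre arrays, against 7.57, 7.29 and 7.69 on the Hmox1f/f arrays. The groups did not overlap and the difference was -0.62 ± 0.17 (SE; unadjusted p = 0.00924, adjusted p = 0.266, limma), the only one of the 5 with an unadjusted p under 0.05, which became 0.0597 with Hmox1f/f PdgfraCre 1 and Hmox1f/f 6 left out. Mmp13 passed the log2 level of 7 on 4 arrays, which were the 3 Hmox1f/f arrays and Hmox1f/f PdgfraCre 2. Its p and lack of overlap were thus partly set by that filter. Mmp12, the elastase of macrophages, gave 13.12, 13.43 and 12.81 on the Hmox1f/f PdgfraCre arrays, against 13.57, 13.38 and 13.38 on the Hmox1f/f arrays. The groups overlapped, with a difference of -0.33 (unadjusted p = 0.0904, adjusted p = 0.369, limma). It was -0.17 when Hmox1f/f PdgfraCre 3 was left out and -0.48 when Hmox1f/f PdgfraCre 2 was. Mmp23 differed by -0.13 (-0.06 when Hmox1f/f PdgfraCre 3 was left out) and Mmp28 by 0.12 (0.03 when that array was left out, and -0.0043 with arrayWeights).

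ADAM proteases, which shed proteins from the cell surface, had a median difference of -0.03 over 9 tested genes, 6 lower and 3 higher (4 lower and 5 higher after a further quantile normalization), and 1 at an unadjusted p under 0.05 (0 without Hmox1f/f PdgfraCre 1 and Hmox1f/f 6). Of all tested genes, 57.4% were lower and 12.8% were lower at that level. Adam8, a protease of myeloid cells, stood apart from the rest of the list. It gave 11.20, 11.58 and 10.82 on the Hmox1f/f PdgfraCre arrays, against 11.94, 11.69 and 12.04 on the Hmox1f/f arrays. The difference was -0.69 ± 0.20 (SE; unadjusted p = 0.0127, adjusted p = 0.266, limma). Adam17, which releases tumour necrosis factor and is blocked by Timp3, differed by -0.21 (unadjusted p = 0.0517, limma), Adam15 by -0.15 and Adam33 by 0.16. Adam15 was -0.09 when Hmox1f/f PdgfraCre 3 was left out, and Adam33 was 0.05 when Hmox1f/f 6 was left out.

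ADAMTS proteases are secreted relatives, several of which cut the proteoglycans aggrecan and versican. Of 11 tested, 9 were higher and 2 lower, with a median of 0.14, and 2 were higher at an unadjusted p under 0.05. Of the 11024 genes tested in all, 4697 were higher, and 3.03% were higher at that level. Adamts9 gave 9.28, 9.18 and 9.40 on the Hmox1f/f PdgfraCre arrays, against 8.79, 8.73 and 8.20 on the Hmox1f/f arrays. All Hmox1f/f PdgfraCre arrays lay above all Hmox1f/f arrays, and the difference was 0.71 ± 0.17 (SE; unadjusted p = 0.00492, adjusted p = 0.266, limma). Adamts5 gave 12.09, 11.95 and 12.40 on the Hmox1f/f PdgfraCre arrays, against 11.71, 11.92 and 11.48 on the Hmox1f/f arrays. These did not overlap either, by a narrow margin, with a difference of 0.45 ± 0.16 (SE; unadjusted p = 0.0280, adjusted p = 0.279, limma), or 0.26 with arrayWeights. Adamts15 differed by -0.24 (-0.36 when Hmox1f/f 5 was left out) and Adamts12 by 0.22 (0.13 when Hmox1f/f 6 was left out). Without Hmox1f/f PdgfraCre 1 and Hmox1f/f 6, Adamts9 alone of the list kept an unadjusted p under 0.05 (0.00926, limma).

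**Figure D4:**
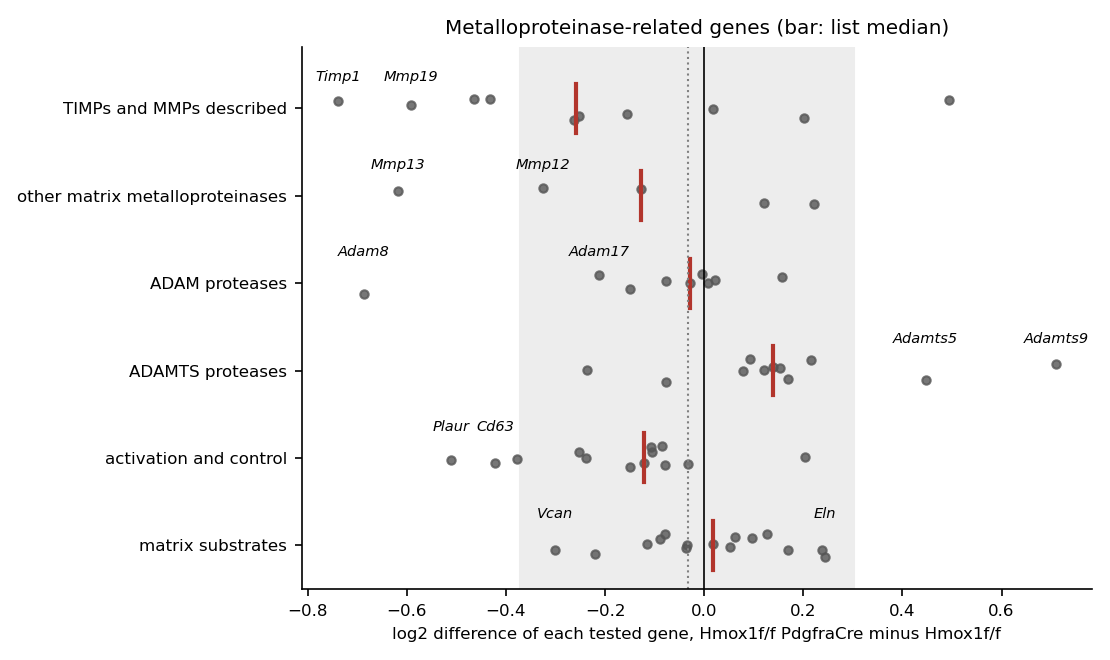
Log2 difference, Hmox1f/f PdgfraCre minus Hmox1f/f (horizontal axis), of each tested gene (points) in the TIMP and MMP genes described and in 5 related lists, with red bars for list medians, a dotted line for the median of all tested genes (-0.03) and a grey band for their 5th to 95th percentile, the 2 genes with the largest differences being named in each list. The medians run between -0.26 for the described genes and 0.14 for the ADAMTS proteases.

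Genes that activate or control metalloproteinases, such as the plasminogen activators and their receptor, were lower in 12 of 13 tested cases, with a median of -0.12 and 4 at an unadjusted p under 0.05 (0 of 13 without Hmox1f/f PdgfraCre 1 and Hmox1f/f 6). Of all tested genes, 57.4% were lower and 12.8% were lower at that level. Plau, the urokinase that turns plasminogen into plasmin, gave 10.20, 10.40 and 10.22 on the Hmox1f/f PdgfraCre arrays, against 10.74, 10.54 and 10.67 on the Hmox1f/f arrays. There was no overlap, with a difference of -0.38 ± 0.09 (SE; unadjusted p = 0.00598, adjusted p = 0.266, limma). Plaur, the urokinase receptor, differed by -0.51 ± 0.19 (SE; unadjusted p = 0.0363, adjusted p = 0.291, limma), with overlapping groups. Leaving out Hmox1f/f 6 gave -0.33 for Plaur, and leaving out Hmox1f/f PdgfraCre 1 as well gave -0.26 (unadjusted p = 0.197, limma). Cd63, a tetraspanin that is a cell surface partner of Timp1, gave 9.55, 9.70 and 9.22 on the Hmox1f/f PdgfraCre arrays, against 9.82, 9.84 and 10.08 on the Hmox1f/f arrays, and differed by -0.42 ± 0.14 (SE; unadjusted p = 0.0240, adjusted p = 0.271, limma). Itgb3, an integrin subunit, differed by -0.25 ± 0.09 (SE; unadjusted p = 0.0326, adjusted p = 0.288, limma).

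Genes of proteins that MMPs cut did not differ in one direction. Of 15 matrix genes tested, 7 were lower and 8 higher, with a median of 0.02 (-0.01 with each array centred on its median). Vcan, the proteoglycan versican, differed by -0.30 ± 0.12 (SE; unadjusted p = 0.0377, adjusted p = 0.293, limma). The basement membrane gene Nid1 differed by 0.24 ± 0.10 (SE; unadjusted p = 0.0485, adjusted p = 0.313, limma). Col3a1, a fibrillar collagen, differed by -0.22 ± 0.09 and the elastin gene Eln by 0.24 ± 0.11 (SE), both with an unadjusted p above 0.05. With single arrays left out, an unadjusted p under 0.05 was kept in 6 of 6 fits for Mmp13, Adam8, Adamts9 and Plau, in 5 for Cd63, in 3 for Itgb3, in 2 each for Adamts5, Plaur and Vcan and in 1 for Nid1. These fits kept the same tested genes, so the limit that the filter sets for Mmp13 holds in them too. No gene of the 5 related lists passed the adjusted level.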

How the data were processed

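RNA of 6 pools, 3 Hmox1f/f PdgfraCre and 3 Hmox1f/f, was hybridised to Affymetrix mouse gene arrays after labelling of 200 ng. The deposited table gives 1 linear intensity per probeset and array, which the submitters' processing notes trace to RMA (a background-corrected, quantile-normalized probe summary) in Affymetrix Expression Console 1.1. Quantile normalization removes a shift shared by most genes, and RMA compresses differences of dim probesets. Log2 was taken of the deposited intensities.

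Of 35556 probesets, 21789 carried 1 symbol. For a gene with several probesets the one with the highest mean was used. All 19938 genes were fitted in limma 3.58.1 (lmFit and eBayes, two-sided, genotype as the only term) in R 4.3.3. Benjamini-Hochberg adjustment ran over the 11024 genes with a log2 intensity above 7 on at least 3 arrays. The fit was first tested on simulated data that held known differences.

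The members, the related lists and the marker lists were chosen with earlier results of these data known, so no list was tested as a set. The named genes were all 10 members, Hmox1 and Pdgfra, the up to 4 genes with the smallest p of each related list, the first 2 of each marker list as far as shown, and the 3 genes nearest to the member with the smallest p. Lcn5 and Gpx5 lead the epididymal list, and Pi16, Csf3r and Cma1 were named after their values were seen. Alternatives were other filters, a further quantile normalization, centring on the array median, arrayWeights, trend and robust moderation, the mean of probesets, leaving out arrays and, chosen after seeing the data, a variance prior from the tested genes only. The labels give no batch or day. Gene positions and promoter sequences come from RefSeq (GRCm38.p6), matched by symbol or gene number. Python 3.11.15 with matplotlib 3.10.9 drew the figures.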

Additional observations from a re-analysis of the deposited data

How the results depend on the processing

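No paired analysis was possible because the replicate numbers 1 to 3 and 4 to 6 are not shared between the genotypes. Under 16 other settings no gene passed an adjusted p of 0.05 by limma, and the smallest adjusted p of any member was 0.0897, for Timp1, Mmp2 and Mmp19 under the filter of the methods, which left 3351 genes and 5 members to test. Timp1, Timp2, Timp3, Timp4, Mmp2, Mmp3, Mmp14 and Mmp19 kept their direction in every setting that tested them. Mmp9 turned to -0.0038 after a further quantile normalization, -0.0093 with arrays centred on their medians and -0.13 with Hmox1f/f PdgfraCre 1 and Hmox1f/f 6 both left out, and ranged between -0.14 and 0.12 with single arrays left out (below 0 without Hmox1f/f PdgfraCre 1 or Hmox1f/f 4). Mmp11 ranged between -0.25 and 0.0031, the upper value without Hmox1f/f PdgfraCre 3. The cause was not tested. At an unadjusted p under 0.05, 1406 genes were lower and 334 higher. After a further quantile normalization these were 1010 and 610. Lower genes numbered 873 under the filter of the methods and 358 when Hmox1f/f PdgfraCre 1 and Hmox1f/f 6 were both left out. Higher genes numbered 515 with arrayWeights and 90 without these 2 arrays. With single arrays left out, lower genes ranged between 803 and 1490 and higher genes between 145 and 616. Members lower at this level numbered 2 without both arrays and 4 to 6 with single arrays left out. Members higher numbered 0 to 1 with single arrays left out, and 1 (Timp4) after a further quantile normalization, with trend and robust moderation and with a variance prior from the tested genes only, the last chosen after seeing the data.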
